A study of Mus musculus with 2 samples.

Results

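The cells described here were the d8 and d16 cells of an AICAR + LIF reversion culture in which Dppa5a, a gene of naive pluripotent cells that is almost silent in differentiated ones, was below 1000 CPM (reads per 1000000 reads of the cell). There were 9555 such cells among 9627 tagged d8 (99.3%) and 3037 among 4315 tagged d16 (70.4%), that is, 12592 of the 17720 cells of the series. Primed mEpiSCs (Oct4GIP line, strain label 129/Ola) were placed on mouse embryonic fibroblast (MEF) feeders in FGF2 and activin A for 1 day. At day 0 the medium was changed to serum-containing Basal medium with AICAR and the cytokine LIF. AICAR activates the energy-sensing kinase AMPK and was given at a lower concentration in the first days than later. Cells were collected after 8 days (d8) and after 16 days (d16) in Basal medium, with no untreated culture of either age among the samples. The other populations were naive mESCs (Rex1-GFP), primed mEpiSCs and d16 cells grown for 10 further passages in 2iL (d16+10p), and they enter here only as a measure of background.

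All 5 populations were tagged on the cell surface and sequenced as 1 pooled library, so each day was a single tagged population without replicates, and no test between the days was possible. Feeder cells carried no tag of their own, and any that were harvested took the tag of the culture. The d8 cells had 3183 to 93862 reads (median 15428; 178248891 in all), and the d16 cells had 3186 to 72616 (median 8691; 35050845 in all). Levels are also given in CPM, here the summed reads of a gene per 1000000 summed reads of the day. Pairs of values are given with d8 first and d16 second. In such sums, fewer cells of a type and less RNA per cell cannot be told apart. Intervals are 95% intervals for counting error alone, and because reads of 1 molecule are not independent they are narrower than the real uncertainty.

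Reversion returns primed cells, which resemble the post-implantation epiblast, towards the naive state of the pre-implantation embryo. Cells that leave pluripotency can enter the lineages that the epiblast forms in the embryo, such as primitive streak, mesenchyme, surface epithelium and neural tissue. Neural progenitors of the radial glia type carry fatty acid binding and glutamate transport proteins, mesenchymal cells secrete fibrillar collagens, and simple epithelia are built on keratins 8 and 18.

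The cells were chosen by their Dppa5a reads, which are given as a description. Dppa5a had no read in 40.8% of the d8 cells and in 51.8% of the d16 cells. The highest value inside the limit was 990 CPM at d8 and 992 at d16, and the lowest outside it was 1049.6 at d8 and 1012 at d16. Few cells lay close to the limit, with 90 d8 cells and 111 d16 cells between 500 and 1000. The label of non-pluripotent cells was checked on 8 other pluripotency genes. Their summed level was 318 CPM at d8 and 279 CPM at d16, against 2699 CPM in the 1278 d16 cells with Dppa5a at or above the limit. Some cells inside the limit nevertheless had Pou5f1, the gene of the core pluripotency factor Oct4, at 200 CPM or more: 743 at d8 (7.78%) and 139 at d16 (4.58%). Among the primed-tagged cells, 1764 were also below the Dppa5a limit, and 26.2% of these reached that level of Pou5f1. The limit therefore does not exclude primed cells, and the number of remaining primed cells was not tested.

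Across the transcriptome, several neural, glial, collagen, acute phase, immediate early and hypoxia genes were higher at d16, whereas simple keratins, smooth muscle genes, macrophage genes, metalloproteinases and chemokines were mostly higher at d8. Of 3991 genes with at least 50 CPM on either day, 305 were at least 2-fold higher at d16 (7.64%) and 131 at least 2-fold higher at d8 (3.28%), on the log2(CPM + 1) scale used for all log2 ratios here. Of all genes past 2-fold, 69.9% were thus higher at d16; with the level of the background cells described below subtracted, the share was 56.2% (359 against 280 genes). The median log2 ratio of d16 over d8 was -0.10, and its quartiles were -0.33 and 0.23. The lists of marker and pathway genes below were read against these shares. The acute phase, astroglial, cilium and hypoxia lists were chosen after values were seen, so their counts are a description only.

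**Figure D1:**
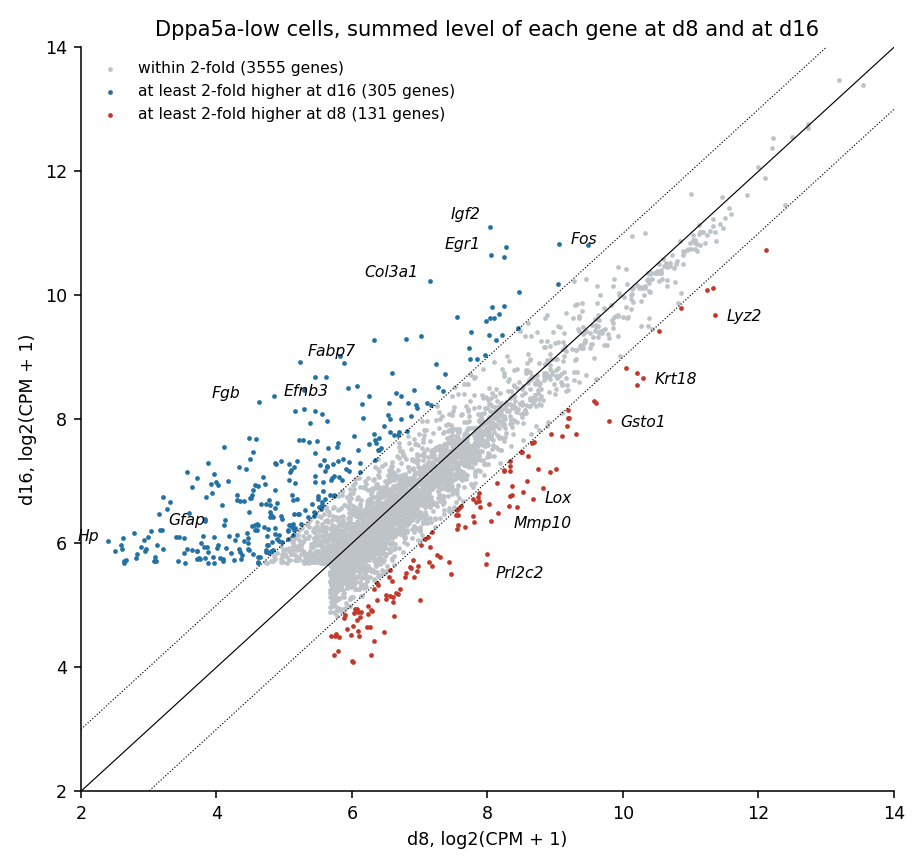
Summed level of each of the 3991 genes at d8 (x axis) and at d16 (y axis), both as log2(CPM + 1); dotted lines mark 2-fold. The 305 genes at least 2-fold higher at d16 reach ratios of more than 3 on the log2 scale, and the 131 genes at least 2-fold higher at d8 lie closer to the line.

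On the log2(CPM + 1) scale, the gene with the largest ratio towards d16 was Fabp7, the brain fatty acid binding protein of radial glia (chr10:57784881-57788450, GRCm38). It was at 36.5 CPM at d8 and at 487 CPM at d16, 13.3-fold higher (12.96 to 13.7) without the pseudocount, and Hp was 15.02-fold higher on that scale. With the level of the background cells subtracted, a setting chosen after seeing the data, the log2 ratio of Fabp7 went from 3.70 to 7.79. The size of the latter depends on counting error and the pseudocount of 1 CPM, because little of the d8 level was left. The d8 level lay at that of naive and d16+10p cells with high Dppa5a (35.5 CPM), a pluripotent population used here as the background of the pooled library. The other genes with the largest ratios shared this pattern of a d8 level near background. Efnb3, which encodes an ephrin ligand of the developing nervous system, went from 27.8 to 332 CPM (background 32.4). Rfx4, a transcription factor of the neural tube, went from 8.31 to 106 CPM. Others among the 15 with the largest ratios were Fgb, Hp, Hepacam2, A2m, Ecrg4, Rspo2, Fgg, Aqp4, Prelp, Ndufa4l2 and Gfap, with log2 ratios from 3.32 to 3.66.

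Of the 8 neural progenitor genes, 4 passed the minimum of 50 CPM, of which 3 were past 2-fold towards d16 and 0 towards d8. The median log2 ratio of all 8 was 1.69 and their sum went from 274 to 1269 CPM, 4.63-fold. Slc1a3, the glial glutamate transporter, was at 55.8 CPM at d8 and 519 CPM at d16, and Zic1, a zinc finger factor of the dorsal neural tube, at 14.6 and 67.8 CPM. Nes, the intermediate filament nestin, which mesenchymal cells also express, was at 155 and 165 CPM. Pax6 and Hes5 were low on both days, at 3.06 and 11.6 CPM and at 1.83 and 8.44 CPM. The list therefore stood apart through Fabp7, Slc1a3 and Zic1 rather than through all of its members.

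Astroglial genes showed the same direction, with 5 of the 6 that passed higher at d16 and a median of 3.12 over all 8. The astroglial list and the cilium list that follows were chosen after values were seen. Gfap, the glial intermediate filament, was at 7.90 and 88.1 CPM, Aqp4, the astrocyte water channel, at 4.65 and 57.6 CPM, and Atp1b2, a glial sodium pump subunit, at 21.4 and 207 CPM. Motile cilium genes had a sum of 67.7 and 315 CPM, most of it from Tppp3, a microtubule protein (42.8 and 175 CPM), and Efcab1 (7.16 and 72.5 CPM). The cilium master regulator Foxj1 stayed below the minimum (4.81 and 28.6 CPM). Of the 3 neuronal genes that passed, Map2 was higher at d16 (12.2 and 52.8 CPM), Stmn2 was higher at d8 (134 and 66.5 CPM) and Gap43 was within 2-fold (61.3 and 102 CPM). Stmn2 was at 198 CPM in the pluripotent background cells, above its level on either day.

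Acute phase genes, known for their secretion by the liver in inflammation, were also mostly higher at d16. Their list was chosen after values were seen and includes genes among those with the largest ratios, so its counts are a description only. All 7 that passed were past 2-fold towards d16, and the sum of the 12, 124 CPM at d8, was 7.70-fold higher at d16. The fibrinogen genes lie next to each other on chromosome 3, but only 2 of the 3 were seen. Fgb (chr3:83040141-83049863, GRCm38) was at 23.7 CPM at d8 and at 311 CPM at d16, and Fgg (chr3:83007724-83015049) was at 5.02 and 61.5 CPM. Fga, which lies between them (chr3:83026076-83033627), was at 0.0168 and 0.0571 CPM. Hp, haptoglobin, was at 4.30 and 64.6 CPM, A2m at 16.4 and 186 CPM, and Cp, the copper protein ceruloplasmin, at 35.6 and 159.6 CPM. Endoderm and liver genes were low on both days: Afp was at 0.987 and 0.399 CPM, Hnf4a at 0.168 and 0.257 CPM, and none of the 8 endoderm genes passed the minimum.

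Matrix genes divided by kind. All 9 fibrillar and associated collagens passed, and 7 were past 2-fold towards d16, with a summed level of 1054 CPM at d8 and 3594 CPM at d16. Col3a1, the chain of type III collagen (chr1:45311538-45349706, GRCm38), was at 141 and 1197 CPM, 8.46-fold higher at d16 (8.33 to 8.60). Col1a1 was at 250.3 and 768 CPM and Col6a2 at 23.3 and 73.4 CPM. Col5a1 and Col12a1 stayed within 2-fold. Of the basement membrane genes, 4 of 6 that passed were past 2-fold towards d16: Col4a1 (161 and 352 CPM), Col4a2, Lamc1 and Nid2. Matrix metalloproteinases and their inhibitors went the other way, with 3 of 7 past 2-fold towards d8 and 0 towards d16. Mmp10, stromelysin 2, was at 346 and 95.6 CPM, Mmp3, stromelysin 1, at 88.2 and 22.7 CPM, and Timp1, an inhibitor of these enzymes, at 327 and 109 CPM.

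The mesenchyme list combined both patterns. Of 6 genes that passed, Col1a1, Col1a2, Col3a1 and Col6a1 were past 2-fold towards d16. Postn, a matrix protein of activated fibroblasts, was higher at d8 (413 and 197 CPM), and Dcn, the proteoglycan decorin, was within 2-fold (206 and 248 CPM). Twist1, a mesenchymal transcription factor, was higher at d16 (23.2 and 78.3 CPM), whereas its paralog Twist2 was lower (36.1 and 10.5 CPM). Vim, the mesenchymal intermediate filament, was at 4684 and 5313 CPM.

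Igf2, an imprinted fetal growth factor on chromosome 7 (chr7:142650766-142666816, GRCm38), was at 262 CPM at d8 and at 2192 CPM at d16, 8.37-fold higher (8.28 to 8.47). H19, its imprinted neighbour that shares an enhancer region with it (chr7:142575529-142578143), was at 22.7 and 27.8 CPM. Among 8 imprinted genes that passed, 5 were past 2-fold towards d16 and 0 towards d8. Besides Igf2 these were Plagl1, a zinc finger factor (54.3 and 195 CPM), Peg3 (261 and 797 CPM), the maternally expressed RNA Meg3 (278 and 618 CPM) and Mest (39.9 and 84.9 CPM). Peg10 lay just under 2-fold on the log2 scale with the pseudocount (213 and 425 CPM).

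Immediate early genes, which respond within minutes to growth factors and to handling of cells, were higher at d16 throughout. All 8 had a higher level, 6 were past 2-fold, and the sum was 2119.7 CPM at d8 and 6502 CPM at d16. Egr1 was at 265 and 1611 CPM, Fosb at 129 and 647 CPM, Fos at 533 and 1820.0 CPM, and Jun at 525 and 1164 CPM. In the d16 cells with high Dppa5a, which carried the same tag, the sum was 1818 CPM.

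Genes induced by low oxygen were also higher at d16. Of 7 hypoxia response genes that passed, from a list chosen after values were seen, 6 were past 2-fold. Bnip3, a mitophagy receptor, was at 38.4 and 285 CPM, Egln3, an oxygen-sensing hydroxylase, at 7.96 and 73.3 CPM, Vegfa, the endothelial growth factor, at 47.2 and 161 CPM, and Pdk1, which limits pyruvate use in mitochondria, at 12.9 and 68.7 CPM. Of 11 glycolysis genes that passed, 5 were past 2-fold towards d16 and 0 towards d8, and all 12 of the list had a higher level at d16. Tpi1 was at 186 and 803 CPM, Pgk1 at 267 and 894 CPM, and Ldha, lactate dehydrogenase A, at 301 and 911 CPM. Both lists were also high in the d16 cells with high Dppa5a, at 994 CPM for hypoxia genes and 12239 CPM for glycolysis, against 1106 and 9963 CPM in the Dppa5a-low d16 cells. In naive and d16+10p cells they were at 637 and 7401 CPM. Both lists were thus higher in both kinds of d16-tagged cell than in either the d8 cells or the background cells, which was not the case for the immediate early genes.

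The promoters of 4 of these genes are shown because hypoxia-inducible factors bind DNA at the core ACGTG. Each is the 250 bases before a RefSeq start of the gene (GRCm38.p6), read 5′ to 3′ on the gene's strand. The core and its reverse complement CACGT are in capitals. For a gene with more than 1 start, the window with the most cores was taken. The Ldha window lies inside the gene by its GENCODE position, which begins at 46841475. Bnip3 is at chr7:138909507-138909756 on the minus strand, Egln3 at chr12:54203875-54204124 on the minus strand, Pgk1 at chrX:106186850-106187099 on the plus strand and Ldha at chr7:46845554-46845803 on the plus strand.
Bnip3: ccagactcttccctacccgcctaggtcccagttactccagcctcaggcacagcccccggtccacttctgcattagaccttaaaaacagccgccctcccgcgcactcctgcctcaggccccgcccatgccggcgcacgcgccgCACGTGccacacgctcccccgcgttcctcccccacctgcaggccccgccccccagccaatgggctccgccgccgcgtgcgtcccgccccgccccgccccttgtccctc
Egln3: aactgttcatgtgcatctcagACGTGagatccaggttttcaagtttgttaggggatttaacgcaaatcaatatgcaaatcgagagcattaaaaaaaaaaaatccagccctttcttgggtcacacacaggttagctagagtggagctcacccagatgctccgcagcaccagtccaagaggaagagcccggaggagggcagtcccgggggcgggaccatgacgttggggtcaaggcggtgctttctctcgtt
Pgk1: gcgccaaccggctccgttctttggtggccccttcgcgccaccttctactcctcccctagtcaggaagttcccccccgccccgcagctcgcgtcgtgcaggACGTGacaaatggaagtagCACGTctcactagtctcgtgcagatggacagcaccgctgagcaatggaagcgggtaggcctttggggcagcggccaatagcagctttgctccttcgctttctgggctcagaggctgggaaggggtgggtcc
Ldha: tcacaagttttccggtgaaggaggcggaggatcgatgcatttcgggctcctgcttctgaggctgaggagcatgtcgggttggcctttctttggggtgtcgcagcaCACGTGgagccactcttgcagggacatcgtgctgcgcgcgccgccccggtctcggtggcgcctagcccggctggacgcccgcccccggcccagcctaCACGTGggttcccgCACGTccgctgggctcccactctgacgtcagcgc
Counted on both strands, where CACGTG holds 2 overlapping cores, Bnip3 had 2, Egln3 had 1, Pgk1 had 2 and Ldha had 5. The core was in 4998 of 27025 gene windows of the same length (18.5%), in 7 of 12 glycolysis genes (58.3%) and in 6 of the 8 hypoxia genes that matched the table (75%). It was in 2 of 6 matched collagen genes (33.3%), 0 of 6 matched immediate early genes and 0 of 8 matched acute phase genes. Of the lists higher at d8, 0 of 6 matched simple epithelium genes and 0 of 5 matched smooth muscle genes had it. A match is a run of letters and not a bound site.

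Targets of signalling pathways moved unevenly. Among targets of Wnt and BMP signalling, 3 passed and all 3 were past 2-fold towards d16: Id1 (75.4 and 330.4 CPM), Id2 (216 and 682 CPM) and Id3 (259 and 657 CPM), inhibitors of basic helix-loop-helix factors that respond to BMP. The Wnt targets Axin2 and Lef1 stayed below the minimum. Of 5 genes of the LIF and STAT3 response that passed, Il6st, the receptor subunit gp130 (50.7 and 129 CPM), and Junb were past 2-fold, whereas the feedback inhibitor Socs3 (34.2 and 59.0 CPM) and Stat3 (92.3 and 144 CPM) were not. Of 5 TGF-beta targets that passed, 2 were past 2-fold towards d8 and 0 towards d16, among them Thbs1, thrombospondin 1 (781 and 306 CPM). In sterol and fatty acid synthesis all 11 genes had a higher level at d16, but only Scd2 (273 and 795 CPM) and Hmgcs1 (123 and 289.6 CPM) of the 7 that passed were past 2-fold.

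**Figure D2:**
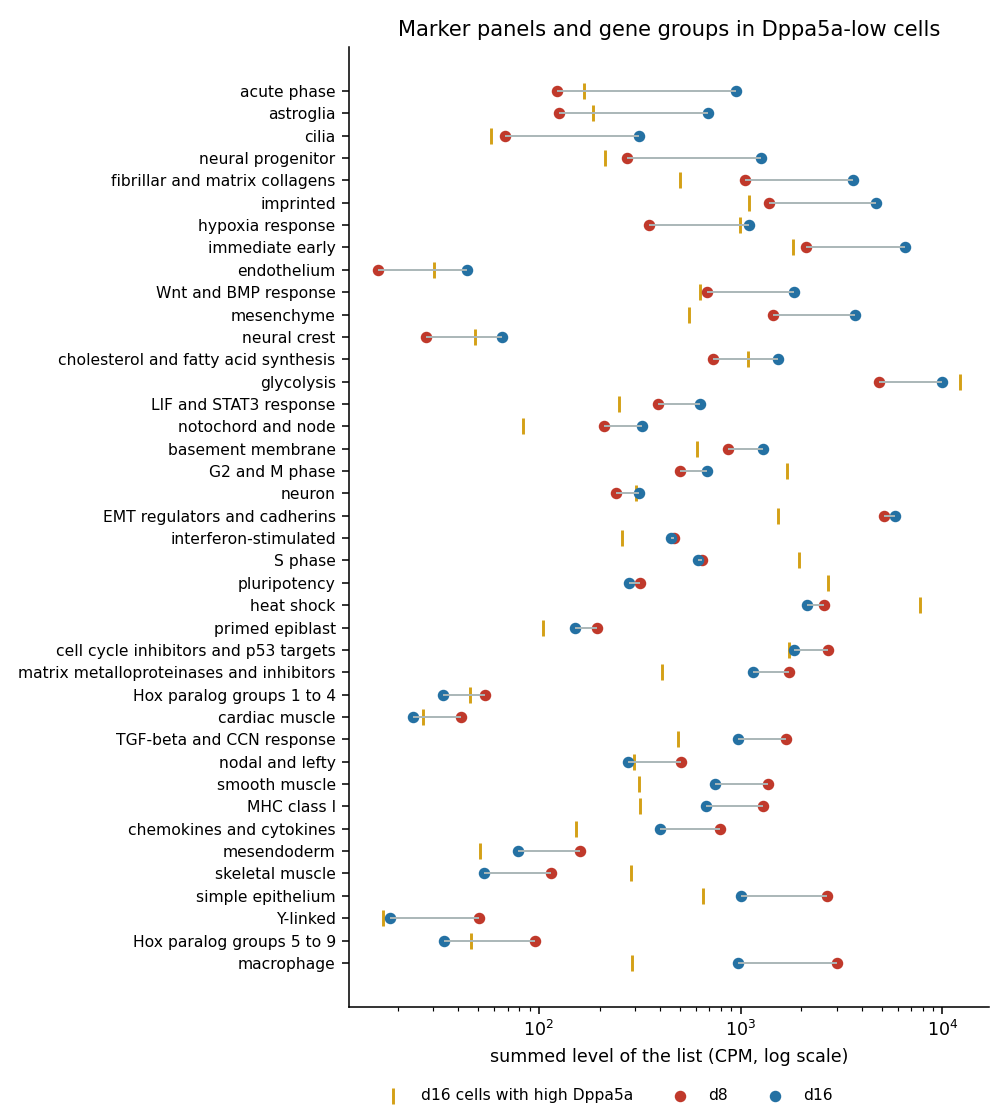
Summed level of each list in CPM on a log scale, at d8 (red) and d16 (blue), with the d16 cells of high Dppa5a as yellow bars. Among the lists drawn, acute phase, astroglial, cilium and neural progenitor lists lie farthest towards d16 and the macrophage list farthest towards d8, while glycolysis was as high in the pluripotent d16 cells. The acute phase, astroglial, cilium and hypoxia lists were chosen after values were seen.

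The genes with the largest ratios towards d8 included several secreted proteins, matrix enzymes and detoxifying enzymes. Prl2c2, a proliferin of the prolactin family (chr13:12996125-13005383, GRCm38), was at 250.2 CPM at d8 and at 49.6 CPM at d16, 5.04-fold higher at d8 (4.81 to 5.29). Its near-identical neighbour Prl2c3 (chr13:12790816-12800079) was at 253 and 56.0 CPM, and reads of the pair can be split between them. The d16 level of Prl2c2 (47.3 to 52.0 CPM) was near that of the pluripotent background cells (47.5 CPM), and with that level subtracted its log2 ratio went from -2.31 to -6.05. The size of the latter depends on counting error and the pseudocount of 1 CPM, because little of the d16 level was left. Lox, which cross-links collagen, was at 409 and 104 CPM, Crabp1, a retinoic acid binding protein, at 449.9 and 117 CPM, and Tfpi2, a protease inhibitor, at 175 and 44.3 CPM. The remaining genes among these 15 were Vgll3, Prkg2, Mmp3, Il1rl1, Crct1, Mgst1, Mmp10, Gpnmb, Gsto1 and Lyz1, with log2 ratios from -1.80 to -2.08. The ratios were smaller than those towards d16.

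Simple epithelial keratins were higher at d8. Krt18 (chr15:102028180-102032027, GRCm38) was at 1259.8 and 404 CPM, 3.12-fold higher at d8 (3.07 to 3.17), and its partner Krt8 (chr15:101996698-102004482) at 1183 and 429.6 CPM. Epcam (72.8 and 46.0 CPM) and Cdh1, E-cadherin (65.2 and 41.2 CPM), were also lower at d16 but within 2-fold, and Krt7 and Krt19 stayed below the minimum. Of 5 smooth muscle genes that passed, Acta2, smooth muscle actin (585 and 282 CPM), and Cnn1, calponin (66.6 and 29.8 CPM), were past 2-fold towards d8. Tagln and Tpm2 were within it, and Myh11, the most restricted of the list, was at 1.03 and 1.71 CPM.

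All 3 macrophage genes that passed were past 2-fold towards d8: Lyz2, lysozyme (2632 and 823 CPM), Tyrobp (96.1 and 34.1 CPM) and Cd68 (125 and 48.7 CPM). Lyz2 shares reads with Lyz1 and was at 464 CPM in the pluripotent background cells. Chemokines Ccl2 (285 and 88.4 CPM) and Ccl7 (172 and 51.0 CPM) and the macrophage growth factor Csf1 (187 and 91.6 CPM) were higher at d8, whereas Cxcl12, a stromal chemokine, was higher at d16 (57.1 and 129 CPM). MHC class I genes were lower at d16 for all 8 members, with 1 of 4 past 2-fold, H2-D1 (259 and 98.5 CPM). Of 7 cell cycle inhibitors and p53 targets that passed, Cdkn2a (76.3 and 23.99 CPM), Cdkn2b (93.4 and 34.4 CPM) and Mdm2 (323 and 159 CPM) were past 2-fold towards d8, and Cdkn1b was past 2-fold towards d16 (43.0 and 88.9 CPM).

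Lists of the embryo around gastrulation were uneven, and 1 gene each of the primed epiblast list and of the Nodal and Lefty list was past 2-fold towards d8. Fgf5, a growth factor of the primed epiblast, was at 74.1 and 27.9 CPM, and Lefty1, an inhibitor of Nodal, at 323 and 151 CPM. All 8 mesendoderm genes had a lower level at d16, although only T, brachyury, passed the minimum (74.2 and 42.3 CPM, within 2-fold). Cer1 was at 11.4 and 3.42 CPM and Eomes at 18.5 and 8.10 CPM. The notochord and node list did not follow: Shh was at 55.7 and 93.3 CPM and Foxa1 at 25.5 and 98.4 CPM, and Foxa1 was past 2-fold towards d16. Otx2, which both epiblast and forebrain express, was at 28.1 and 52.7 CPM.

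For cell cycle genes, 0 of 7 G2 and M phase genes and 0 of 4 S phase genes that passed were past 2-fold in either direction. Their sums were 499 and 682 CPM and 645 and 612 CPM. Both lists were far higher in the d16 cells with high Dppa5a (1708 and 1953 CPM). The interferon list was at 469 and 450.4 CPM, with Ifitm3 as the only member that passed (387 and 383 CPM).

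Shares of cells were compared after each cell was thinned to 5000 reads, which left out 745 d8 cells and 564 d16 cells and kept 8810 and 2473. A cell was called positive for a list when at least 3 of its genes had a read. Neural progenitor positive cells made up 3.01% of d8 cells (2.66 to 3.39) and 27.7% of d16 cells (25.98 to 29.6). In naive and d16+10p cells with high Dppa5a, the background with a median of 23948 reads before thinning, the share was 1.498%. Mesenchyme-positive cells made up 38.8% and 46.6% with a background of 21.4%, smooth muscle positive cells 30.4% and 19.9% with 6.13%, and epithelium-positive cells 37.4% and 15.9% with 30.1%. The d16 share for epithelium lay below the background, so by this rule the background cells do not serve as a floor for this list. The summed level of this list was nevertheless 1003 CPM in the d16 cells, against 734 CPM in the background cells. Macrophage-positive cells made up 10.9% and 4.12% with a background of 4.36%, so that the d16 share was near background. Pluripotency-positive cells made up 7.96% and 5.86% against 94.5%. Without thinning the shares were 22.0% and 42.9% for neural progenitor genes, 64.3% and 31.6% for epithelium and 62.2% and 39.0% for smooth muscle. For mesenchyme they were 75.1% and 66.7%, the opposite order of the thinned shares. The d16 cells were the shallower ones before thinning.

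Pluripotent cells had reads of these lists, whether from free RNA or from their own expression, which was not tested. A second limit was therefore set for each list at the 99th percentile of its reads in those cells. It counts reads, so a cell can pass it with reads of fewer than 3 genes. For neural progenitor genes the limit was 6 of 5000 reads, and 1.71% of d8 cells (151; 1.45 to 2.01) and 36.9% of d16 cells (912; 34.97 to 38.8) lay above it. At d16 more cells passed this limit (912) than had reads of at least 3 genes of the list (686). Mesenchyme genes were above their limit in 11.5% and 25.3% of cells, smooth muscle genes in 20.7% and 12.0%, and simple epithelium genes in 16.99% and 2.79%. Of the smaller lists, astroglial genes were above it in 0.953% and 30.0%, acute phase genes in 1.54% and 30.2%, cilium genes in 1.76% and 24.2%, and mesendoderm genes in 12.0% and 3.07%. Macrophage genes were above it in 7.32% of d8 cells (645) and in 1.25% of d16 cells (31). The order of the days was the same as with 3 genes for neural progenitor, mesenchyme, smooth muscle, epithelium, mesendoderm and macrophage lists. A cell with reads close to a limit can fall on either side: within 1 read of it were 401 d8 and 397 d16 cells for neural progenitor genes, and 161 and 34 for mesenchyme. None of 10 lists was above its limit in 30.9% of d8 cells (2718) and 22.8% of d16 cells (563).

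**Figure D3:**
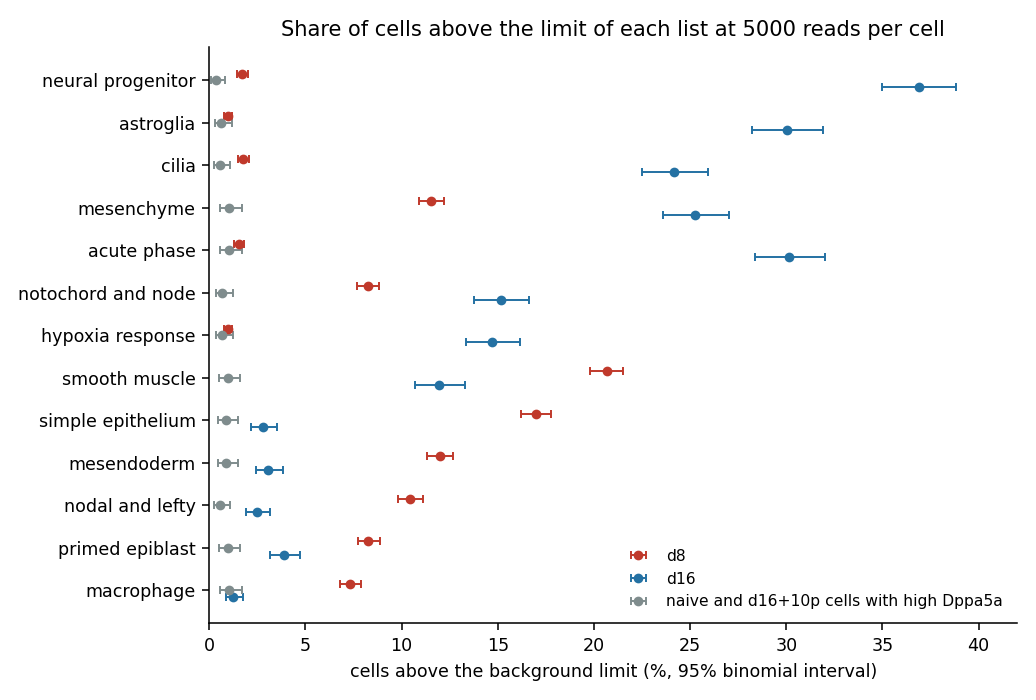
Share of cells above the limit of each list at 5000 reads per cell, in percent with 95% binomial intervals, at d8 (red), d16 (blue) and in the pluripotent background cells (grey). Cells above the neural progenitor limit went from 1.71% to 36.9% and cells above the simple epithelium limit from 16.99% to 2.79%.

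**Figure D4:**
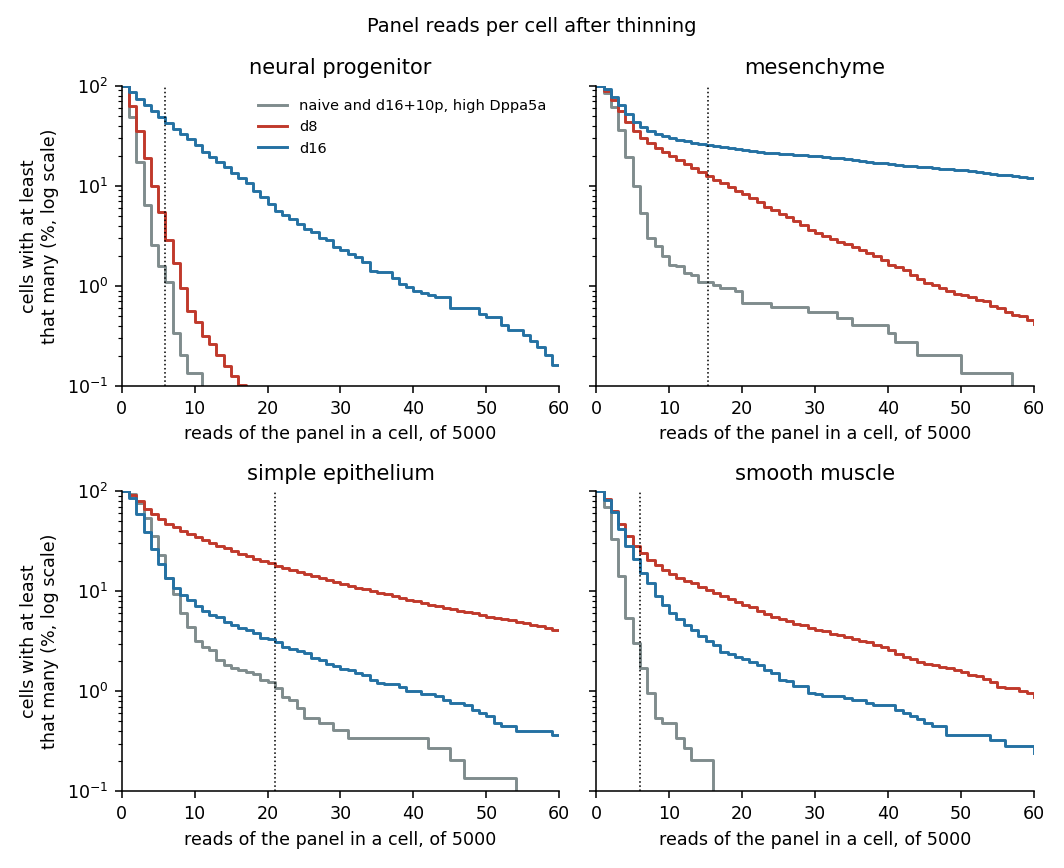
Share of cells (log scale) with at least the number of reads of a list given on the x axis, out of 5000 reads per cell. The dotted line is the limit of the list, and the d16 curves (blue) lie above the d8 curves (red) for neural progenitor and mesenchyme genes and below them for simple epithelium and smooth muscle genes over most of the range.

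The d16 cells above the neural progenitor limit were mixed by the other lists. Of 912 cells, 48.8% were also above the astroglial limit, 38.8% above the acute phase limit, 38.0% above the cilium limit and 20.6% above that of notochord and node genes, while 9.21% were above that of mesenchyme. Over all d16 cells these shares were 30.0%, 30.2%, 24.2%, 15.2% and 25.3%. Among the 151 d8 cells above the neural progenitor limit, 31.1% were above the smooth muscle limit, 25.8% above the epithelium limit, 13.9% above each of the notochord and mesendoderm limits and 7.28% above the acute phase limit. Over all d8 cells these shares were 20.7%, 16.99%, 8.23%, 12.0% and 1.54%. Reads of at least 3 genes of the neural progenitor list were present in 33.8% of the 151 d8 cells and in 57.8% of the 912 d16 cells. Of the d8 mesenchyme cells, 36.6% were also above the smooth muscle limit, against 16.3% at d16. A cell in such a group is therefore a cell above a limit and not a cell type.

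The question whether the days differed within cells of 1 kind was asked by summing the cells positive for a list. In cells with reads of at least 3 mesenchyme genes (3417 at d8, 1152 at d16), 300 of 3958 genes were past 2-fold towards d16 (7.58%) and 192 towards d8 (4.85%). Above the mesenchyme limit (1017 and 625 cells), 402 of 3976 genes were past 2-fold towards d16 (10.1%) and 338 towards d8 (8.5%). The d8 cells above this limit had higher levels of a set of secreted proteins. Prl2c2 was at 679 CPM at d8 and at 51.7 CPM at d16, Lox at 1498 and 187 CPM, Inhba, the activin A subunit, at 1575 and 222 CPM, Ccl2 at 903 and 112 CPM, and Thbs1 at 2519 and 351 CPM. The 5 genes with the largest ratios towards d8 were C1qtnf3, Pmaip1, Prl2c2, Prl2c3 and Serpinb2, and each was at or near background at d16. The d16 cells had Col3a1, which served to choose them, at 4793 against 417 CPM, and Igf2 at 3103 against 376 CPM. The 5 genes with the largest ratios towards d16 were Thsd4 (5.39 and 108 CPM), Cygb (6.35 and 107 CPM), Edn3 (3.13 and 55.4 CPM), Apod (18.95 and 269 CPM) and Scara5 (8.06 and 117 CPM). Mki67, a proliferation marker, was at 22.7 and 114 CPM and Cdkn2a at 158 and 27.9 CPM, while over all cells Mki67 was at 44.5 and 86.1 CPM.

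Smooth muscle cells shared some differences with the mesenchyme cells, and the groups shared cells. Above the smooth muscle limit, 20.4% of cells at d8 and 34.5% at d16 were also above the mesenchyme limit, against 11.5% and 25.3% of all cells. Of the 296 d16 cells, 30.7% were also above the acute phase limit and 27.7% above each of the neural progenitor and astroglial limits. Over all d16 cells these shares were 30.2%, 36.9% and 30.0%. With 3 genes, 277 of 3904 genes were past 2-fold towards d16 (7.1%) and 86 towards d8 (2.2%), and above the limit (1820 and 296 cells) 275 of 3862 (7.12%) and 95 (2.46%). Lox was at 634 and 190.3 CPM, Prl2c2 at 263 and 42.6 CPM, and Col3a1 at 185 and 1761 CPM. Ogn, a small matrix proteoglycan, had the largest ratio towards d16 (10.4 and 169 CPM). It was followed by Wif1 (4.63 and 71.2 CPM), Fabp7 (30.6 and 402 CPM), Fgb (18.5 and 243 CPM) and Pomc (10.6 and 140 CPM). Acta2, a gene of the list, was at 1980.4 and 1189 CPM. Of cells that lay within 1 read of the smooth muscle limit there were 895 at d8 and 293 at d16.

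In simple epithelium cells few genes were higher at d8. With 3 genes, 181 of 3955 genes were past 2-fold towards d16 (4.58%) and 8 towards d8 (0.202%), and above the limit (1497 and 69 cells) 111 of 3874 (2.87%) and 10 (0.258%). Krt18 and Krt8, which served to choose these cells, were at 4783.5 and 3785 CPM and at 4266 and 3597.5 CPM. Lox (58.5 and 45.5 CPM) and Prl2c2 (35.2 and 30.3 CPM) were at background on both days. Genes with the largest ratios towards d16 were Psca, Ceacam1, Krt6a, Fxyd3 and Krt20, genes of stratified or mucosal epithelia, but after thinning Psca had a read in 6 of the 69 d16 cells and Krt20 in 9. Of the 88 genes past 2-fold towards d8 over all cells that were tested here, 3 were also past it in these cells and 27 were in the opposite direction. The count was 103 of 114 in mesenchyme cells, 70 of 117 in smooth muscle cells and 55 of 95 in neural progenitor cells. Of the genes past 2-fold towards d16 over all cells, 76 of 155 were also past it in epithelium cells, 167 of 214 in mesenchyme cells, 234 of 263 in smooth muscle cells and 251 of 292 in neural progenitor cells. Over all genes tested, shares towards d8 were 0.258% (epithelium), 8.5% (mesenchyme), 2.46% (smooth muscle) and 4.93% (neural progenitor). Towards d16 they were 2.87%, 10.1%, 7.12% and 9.22% in the same order. The cells of each group are part of the cells that gave the genes over all cells, so part of this overlap was built in.

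In neural progenitor cells, with 3 genes, 368 of 4157 genes were past 2-fold towards d16 (8.85%) and 158 towards d8 (3.8%), and above the limit (151 and 912 cells) 389 of 4217 (9.22%) and 208 (4.93%). Ecrg4, a secreted peptide gene of choroid plexus and ependyma, was at 15.5 and 238 CPM, and Efnb3 at 41.3 and 542 CPM. Krt18 was at 1533 and 273 CPM and T at 133 and 23.5 CPM, so that the few d8 cells above this limit also held epithelial and streak reads.

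**Figure D5:**
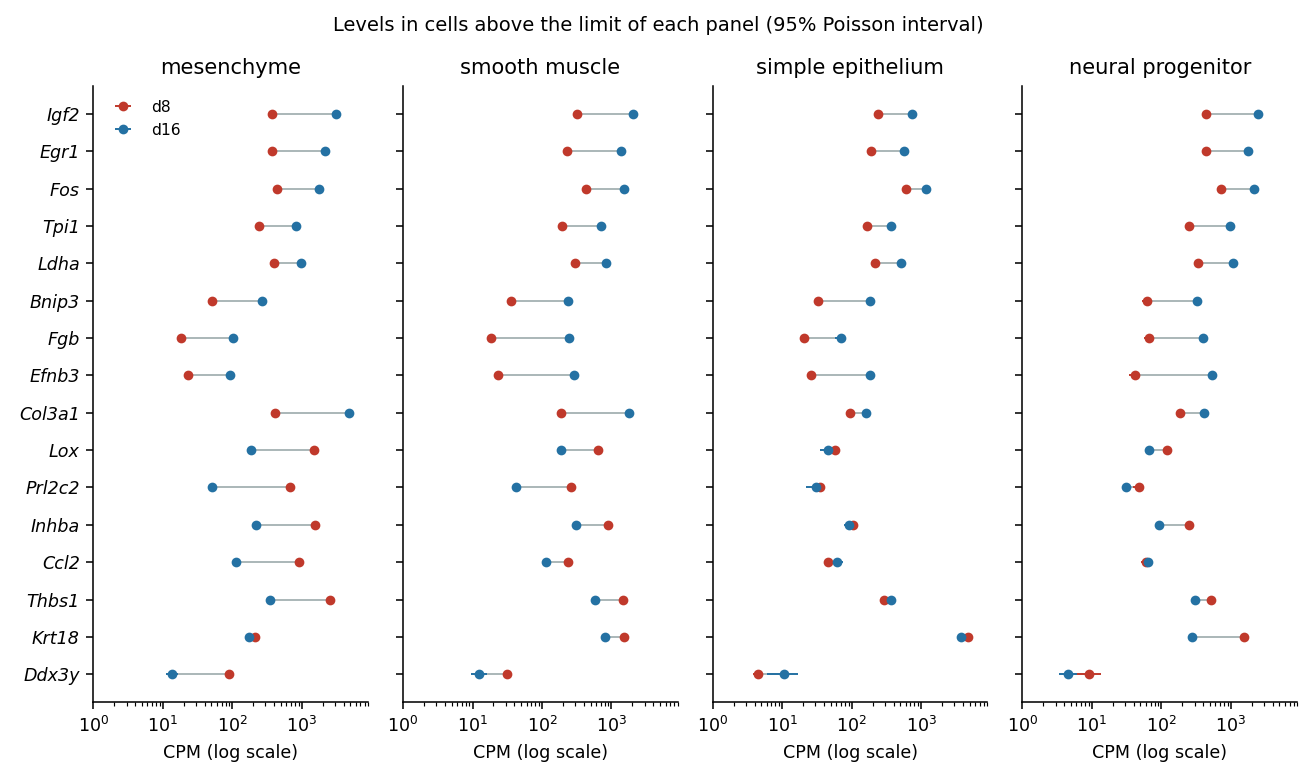
Level of 16 genes in CPM (log scale, 95% Poisson intervals) in the cells above the limit of 4 lists, at d8 (red) and d16 (blue). Igf2, Egr1, Fos, Tpi1, Ldha and Bnip3 were higher at d16 in each list, while Lox, Prl2c2, Inhba, Ccl2 and Thbs1 were higher at d8 in mesenchyme and smooth muscle cells and, except Ccl2, in neural progenitor cells.

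Some differences were thus seen in each of these groups of cells and others were not. Igf2 was at 322 and 2062 CPM in smooth muscle cells, at 236 and 728 CPM in epithelium cells and at 439.5 and 2479 CPM in neural progenitor cells. Egr1 was at 374 and 2137 CPM in mesenchyme cells and at 191 and 564 CPM in epithelium cells. Bnip3 was at 51.0 and 267 CPM in mesenchyme cells and at 32.6 and 183 CPM in epithelium cells. Neural genes were also higher in d16 cells chosen for macrophage genes: in the 31 d16 cells above the macrophage limit, Fabp7 was at 426 CPM, Efnb3 at 328 CPM and Fgb at 346 CPM, against 47.6, 28.7 and 23.9 CPM in the 645 d8 cells. In the 1278 d16 cells with high Dppa5a the same genes were at 57.3, 47.1 and 47.1 CPM. The part of free RNA and of cells captured together in these values was not tested.

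Feeder cells were looked for by Y-linked reads alone. The study lists both the Oct4GIP and the Rex1-GFP line as XX, and an XX cell has no Y chromosome, whereas the sex of the feeders is not given in the sources used here. The summed level of the Y-linked genes Ddx3y, Eif2s3y, Uty and Kdm5d was 50.8 CPM at d8 (49.8 to 51.9) and 18.3 CPM at d16 (16.9 to 19.8), and none of the 4 passed the minimum. It was 16.9 CPM in the d16 cells with high Dppa5a and 17.01 CPM in primed-tagged cells with low Dppa5a, but 53.6 CPM in the naive and d16+10p background cells. By cells, the Y-linked level was highest in mesenchyme cells at d8, with 127 CPM against 26.6 CPM at d16, and it was 13.8 and 19.1 CPM in epithelium cells. It was 63.4 and 37.0 CPM in macrophage cells and 51.3 and 27.2 CPM in smooth muscle cells. The d8 mesenchyme cells thus held the fibroblast genes that were higher at d8 and the highest Y-linked level of these groups. Y-linked reads were not confined to them, and what these reads mark was not tested. With all cells with a Y-linked read before thinning left out (2593 at d8 and 405 at d16), 335 genes were past 2-fold towards d16 and 124 towards d8. The d8 cells were the deeper ones, and a deeper cell is more likely to hold such a read. With the cells above the macrophage or Y-linked limit left out (739 and 33), the counts were 316 and 108. Of the cells left out in that setting, 645 and 31 were above the macrophage limit, so few were removed by the Y-linked limit alone. The part of feeder cells in the d8 values was not tested further.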

How the data were processed

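The deposited table gives raw counts (reads, always whole numbers) for each gene symbol in each cell. The authors trimmed reads with cutadapt 2.10, mapped them with Bowtie2 2.3.4.1 to Ensembl cDNA and ncRNA of GRCm38.p6, kept barcodes above the knee-plot inflection and removed cells with ambiguous tags as doublets. Cells that share a tag in a doublet remain, and no further doublet caller was run. No collapsing to molecules is described. The table held 9627 d8 and 4315 d16 cells, where 9000 of each are given per the labels. The day was read from the tag prefix of each cell.

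Counts of a day were summed and scaled to CPM by the reads of all genes. Dppa5a and mitochondrial genes were part of that total but were left out of the genes compared. Genes with at least 50 CPM on either day and 100 reads in all were compared as log2 ratios with a pseudocount of 1 CPM, and a log2 ratio of 1 or more was called 2-fold. Intervals are exact Poisson (levels), exact binomial (ratios) and Clopper-Pearson (shares), at 95%. Cells of 1 library are not replicates, so no p-value was computed. The text names the members of the lists, the 15 leading genes by log2 ratio towards each day, and 5 such genes within each group of cells. Members and lists were chosen with earlier results of these data known. The acute phase, astroglia, cilium and hypoxia lists, the limits per list, the subtraction of background and the removal of cells above the macrophage or Y-linked limit were chosen after values were seen.

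Python 3.11.15, NumPy 2.4.6, pandas 2.3.3, SciPy 1.17.1, matplotlib 3.10.9, R 4.3.3 and edgeR 4.0.16 (TMM factors only) were used. Gene positions are from GENCODE and promoters from RefSeq; 399 of 400 symbols had a position. Some genes that meet the naming rule are not reported here. The scripts were tested on simulated data.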

Additional observations from a re-analysis of the deposited data

How the results depend on the processing

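The counts of 305 genes higher at d16 and 131 higher at d8 became 623 and 237 with a minimum of 20 CPM, and 1662 and 434 with no minimum, because more genes were tested. With the background level subtracted, a setting chosen after seeing the data, 280 genes were higher at d8. In the other settings the counts were 266 to 372 and 108 to 168. TMM and median-of-ratios scaling moved the median log2 ratio of all genes by -0.07 and -0.06. The share difference for mesenchyme-positive cells (d16 minus d8) was 7.80 percentage points and turned to -8.38 with no thinning, and that for neuron-positive cells went from 3.23 to -0.41; the cause was not tested. The median log2 ratio of the macrophage list went from -1.31 to 0.25 without macrophage-positive cells, which that setting removes by construction. Of 450 log2 ratios of the leading genes under these settings, 159 moved beyond their counting interval and 0 changed direction. Background subtraction gave 7.79 for Fabp7 (3.70 as reported) and -6.05 for Prl2c2 (-2.31). The size of both depends on counting error and the pseudocount, because little of the lower level was left. No paired analysis was possible because each day was 1 tagged population without replicate numbers, and no replicate could be left out. Depth limits the lists whose genes stayed below 50 CPM, and shares of cells depend on the 5000 reads kept per cell.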

Other observations

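Hox genes, which pattern the body axis, all stayed below the minimum of 50 CPM. For paralog groups 5 to 9 the summed level was 95.9 CPM at d8 (94.5 to 97.4) and 33.9 CPM at d16 (32.0 to 35.8), and all 15 genes were lower at d16. For groups 1 to 4 it was 54.0 and 33.7 CPM, with 10 of 12 genes lower, and for groups 10 to 13 it was 24.3 and 11.01 CPM, with 9 of 12 lower. In naive and d16+10p cells with high Dppa5a the sums were 29.6 CPM (groups 1 to 4), 44.8 CPM (5 to 9) and 24.5 CPM (10 to 13), so that the d16 levels of the groups from 5 on were below this background.

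Endothelial genes had a sum of 16.0 CPM at d8 and 44.1 CPM at d16, and Kdr, the VEGF receptor, was at 6.61 and 23.6 CPM. Neural crest genes had a sum of 27.6 and 65.7 CPM, of which Pax3, also a gene of the dorsal neural tube, made up 8.83 and 43.4 CPM, while Sox10 was at 0.511 and 0.371 CPM. Acta1, skeletal muscle actin, was at 102 and 35.5 CPM, although Myog was at 0.0842 and 0.143 CPM. Genes of the two-cell-like state had a sum of 1.54 and 12.0 CPM, against 40.7 CPM in d16 cells with high Dppa5a. Xist, the RNA that coats the inactive X chromosome, was at 225 CPM at d8 and 412 CPM at d16, against 100.1 CPM in d16 cells with high Dppa5a. The receptor gene Osmr was at 29.3 and 7.13 CPM, and Il6 at 13.1 and 3.22 CPM. Heat shock genes were within 2-fold in sum (2594 and 2126 CPM) but at 7717 CPM in d16 cells with high Dppa5a, most of it Hsp90aa1 (6946 CPM).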
